A study of Mus musculus with 3 samples.

Results

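The cells described here are barcodes of mouse mesenteric lymph node that carry transcripts of migratory, CCR7-high dendritic cells. They were chosen by a rule on raw counts of unique molecular identifiers (UMIs): at least 3 of Fscn1, Ccl22, Ccr7, Apol7c, Serpinb6b and Zmynd15 with at least 1 UMI, and no UMI of Cd3d, Cd3e, Ms4a1 or Xcr1. The rule was applied to the 67002 barcodes that showed 300 or more genes and had no more than 10% of their UMIs from mitochondrial genes, and 4936 met it. These 4936 barcodes, called members below, numbered 1484 of 26348 with citrate buffer, 2489 of 23331 with free OVA and 963 of 17323 with LysoPS-OVA.

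Ovalbumin (OVA) is an egg protein commonly used as a model antigen. Mice were dosed by mouth for 4 weeks with 5 mM citrate buffer (called untreated control in its title), with 1 µg of free OVA, or with 1 µg of OVA given with lysophosphatidylserine (LysoPS-OVA). The nodes of 6 animals per group were pooled into 1 library, digested with enzymes and depleted of dead cells, and 10000 cells were loaded. Each group is therefore 1 library with no replicate, the animals of a library cannot be told apart, and every comparison below is a description of these libraries with no test. Values given in threes are in the order citrate buffer, free OVA, LysoPS-OVA, and intervals cover counting error only.

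Dendritic cells take up antigen in the gut wall, switch on the chemokine receptor CCR7 and travel through lymph to the mesenteric node, where they show the antigen to T cells. This migratory state is known for a shared programme of chemokines, cytoskeletal regulators, NF-kB factors and regulatory enzymes, which type 1 and type 2 dendritic cells both acquire while losing much of what tells them apart. A share of gut-derived migratory dendritic cells makes retinoic acid through the enzyme ALDH1A2, which favours gut-homing and regulatory T cells.

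The libraries held 96616683, 81559237 and 84089686 UMIs in 28927, 28660 and 20873 barcodes, more barcodes than cells loaded. The nuclear noncoding RNA Malat1 fell below 0.5% of UMIs in 25.3%, 50.3% and 20.5% of the kept barcodes, so the free OVA library stood apart. The labels call the cells intestinal, but Epcam, an epithelial adhesion molecule, had a UMI in only 1.10%, 1.40% and 1.40% of kept barcodes, and Vil1, a protein of the epithelial brush border, in 0.228%, 0.154% and 0.237%. Members had a median of 1664, 1621 and 1337 UMIs and 783, 661 and 618 genes. Pairs of libraries shared 118 to 141 kept barcode sequences, and at most 1 member. Among members with transcripts of a single sex, 72.1%, 88.0% and 88.0% carried Y-linked ones. This share was 76.7%, 88.2% and 90.3% in members with Malat1 below 0.5% of UMIs and 64.5%, 87.2% and 80.7% in the others. The makeup by sex may thus differ between the libraries, and the part of RNA class and of RNA from other cells was not tested.

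The rule genes set the choice, so their levels are description only. Fscn1 encodes the actin-bundling protein fascin, and its level was 1611, 2015 and 1876 CPM over all members of a library, where CPM is the usual depth-scaled count, taken from UMIs summed over cells. The chemokine Ccl22, which draws regulatory T cells, was at 717, 565 and 469.6 CPM, highest with citrate buffer. Ccr7 itself was at 504, 484 and 567 CPM, within a narrow range. Apolipoprotein gene Apol7c was at 1452, 2092 and 2188 CPM and lowest with citrate buffer. The serpin gene Serpinb6b was at 1382, 1293 and 1284 CPM and Zmynd15 at 530.0, 665 and 861 CPM. Fscn1 had a UMI in 90.2%, 91.8% and 89.5% of members and Ccr7 in 51.8%, 50.2% and 49.3%. Each member was then thinned to 2000 UMIs, and shallower ones were left out. Ccr7 was detected in 249 of 498, 480 of 892 and 142 of 223 of these members, most often with LysoPS-OVA. Thinned to 1000 UMIs, the shares were 36.5% (33.9% to 39.1%), 35.2% (33.1% to 37.3%) and 39.2% (35.6% to 43.0%), and these intervals overlap.

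More members passed the threshold of 3 rule genes with 4 or more than with exactly 3: 523, 907 and 367 members had exactly 3, while 112, 241 and 85 had all 6. Just outside the rule stood 519, 940 and 353 barcodes that met every other condition with exactly 2 rule genes. Fscn1 was at 585, 856 and 973 CPM in those and at 1264, 1581 and 1542 CPM in members with exactly 3. Il4i1, an amino acid oxidase outside the rule, was at 226, 375 and 356 CPM just outside and at 465, 559 and 487 CPM just inside. The B cell receptor gene Cd79a was at 268, 146 and 184 CPM just outside and at 163, 108 and 139 CPM just inside. The rule itself sets the Fscn1 difference. Barcodes just outside were lower in Il4i1 and higher in Cd79a in every library.

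The promoters of a rule gene, Apol7c, and of a gene that differed between the libraries, H2-M2, are shown because each holds motifs of pathways known in migratory dendritic cells. They are taken from RefSeq on GRCm38.p6, 5′ to 3′ on the gene's strand, from 250 bases before to 50 after the start. Capitals mark matches to 3 motifs of 10 bases searched on both strands: an interferon response motif (GAAA, any 2 bases, GAAA) and NF-kB-like motifs of a first kind (GGG, any 3 bases, TTCC) and a second kind (GGGAA, any 3 bases, CC). Apol7c (chr15:77533266-77533565, minus strand) holds 2 overlapping matches to the interferon response motif, both on the strand opposite the gene. H2-M2, a nonclassical MHC class I gene whose values follow (chr17:37483505-37483804, minus strand), holds the first NF-kB-like motif on its own strand and the second on the opposite strand.
Apol7c: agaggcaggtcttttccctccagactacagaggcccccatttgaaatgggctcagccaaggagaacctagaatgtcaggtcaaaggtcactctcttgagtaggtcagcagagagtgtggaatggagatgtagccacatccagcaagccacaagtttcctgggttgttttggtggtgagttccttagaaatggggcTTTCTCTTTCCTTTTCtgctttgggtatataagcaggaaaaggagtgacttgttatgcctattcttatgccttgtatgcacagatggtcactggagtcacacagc
H2-M2: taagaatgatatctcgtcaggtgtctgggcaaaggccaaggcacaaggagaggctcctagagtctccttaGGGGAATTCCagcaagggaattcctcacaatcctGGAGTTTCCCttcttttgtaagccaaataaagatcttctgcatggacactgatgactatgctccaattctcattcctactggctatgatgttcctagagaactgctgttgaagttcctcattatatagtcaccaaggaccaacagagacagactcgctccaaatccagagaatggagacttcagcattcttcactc
Of 32851 promoters of this length, 3.44% hold the interferon response motif, 5.56% the first NF-kB-like motif and 5.78% the second. An entry was found for 4 of the 6 rule genes, of which Apol7c alone holds the interferon response motif and none holds the others. Of 20 listed migratory genes with an entry, Eno2 holds the first NF-kB-like motif and Stat4 the interferon response motif. A match is a run of letters and not a measured binding site.

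The members were also described by genes the rule did not use. For this, members were set beside a gate of type 1 conventional dendritic cells (cDC1 gate: at least 2 of Xcr1, Clec9a, Naaa, Cadm1, Tlr3 and Gcsam and at most 1 rule gene), which held 154, 262 and 114 barcodes. A gate for type 2 dendritic cells held only 3, 11 and 2 barcodes and was not used. Of 2042 genes measured (at least 50 CPM and 30 UMIs in the higher part in every library), 390 (19.1%) were past 1.5-fold higher in members in all 3 libraries and 197 (9.65%) past 1.5-fold lower. All 27 measured genes of a list of 30 migratory dendritic cell genes outside the rule were past 1.5-fold higher, with medians of 2.91, 3.08 and 3.22 on the log2((CPM + 10)/(CPM + 10)) scale, where all measured genes had medians of 0.10, 0.14 and 0.20. Members and gate are both defined from the same counts. A listed gene could also pass the filter through its level in members alone. The list was chosen with earlier results of these data known. The 27 of 27 is therefore description and no independent check of the label.

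Of 5 measured chemokine and cytokine genes 4 were past 1.5-fold higher in members than in the cDC1 gate and 1, Cxcl9, a chemokine induced by interferon, was lower, at 19.99, 26.5 and 20.4 CPM against 689, 946 and 772. Ccl5, a chemokine for effector T cells, was at 8224, 11358 and 12842 CPM in members and 145, 308 and 428 in the cDC1 gate. Il4i1, which degrades aromatic amino acids, was at 626, 868 and 738 CPM against 9.19, 16.5 and 21.9. The chemokine Ccl17, a ligand of CCR4, was at 119, 126 and 144 CPM against 0, 0 and 0. Ccl5, Il4i1 and Ccl17 were higher in members of every library, and Ccl17 had no UMI in the gate. The enolase gene Eno3 was at 389, 611 and 667 CPM against 9.19, 8.25 and 21.9, and Glipr2 at 673, 749 and 749 against 22.97, 12.4 and 15.6.

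Relb, the transcription factor of the alternative NF-kB pathway, was at 489, 660.4 and 731 CPM in members and 78.1, 54.99 and 43.7 in the cDC1 gate. The cytokine signalling inhibitor Socs2 was at 223, 247 and 253 CPM against 4.59, 6.87 and 9.37. Marcksl1, an actin-regulating membrane protein, was at 929, 1072 and 1191 CPM against 115, 118 and 119. Each was several-fold higher in members of all 3 libraries. Of 17 measured NF-kB and survival genes, 11 were past 1.5-fold higher and none lower, and of 25 measured cytoskeleton and motility genes 11 were higher and 1 lower. The costimulatory receptor gene Cd40 was at 215, 174 and 188 CPM against 41.3, 42.6 and 24.99 in the cDC1 gate and 116, 136 and 135 in the B cell gate.

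Genes of type 1 dendritic cells were mostly lower in members as the choice of cells largely sets: the rule bars Xcr1, and the gate requires 2 of Xcr1, Clec9a, Naaa, Cadm1, Tlr3 and Gcsam. Of 10 measured type 1 dendritic cell genes 8 were past 1.5-fold lower and 1, Laptm4b, higher. Of the 8 lower, Clec9a, Naaa, Cadm1 and Gcsam define the gate, and Irf8, Wdfy4, Ppt1 and Ifi205 do not. Clec9a, a receptor for dead cells, was at 11.6, 11.5 and 12.1 CPM in members and 317, 227 and 337 in the gate it helps define. Irf8, the lineage factor of cDC1, was at 279.6, 208 and 217 CPM against 1061, 849.6 and 1190.2. MHC class II genes parted likewise, with 8 of 13 measured lower and 2 higher. H2-Ab1, a chain of the class II molecule, was at 638, 659.6 and 785 CPM in members against 4031, 5107 and 5798, and the invariant chain gene Cd74 at 5066, 5802 and 6819 against 12779, 15822 and 15819. Of 19 measured MHC class I genes 13 were past 1.5-fold higher in members and none lower. The class II and class I lists therefore stood on opposite sides in members of every library.

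**Figure D1:**
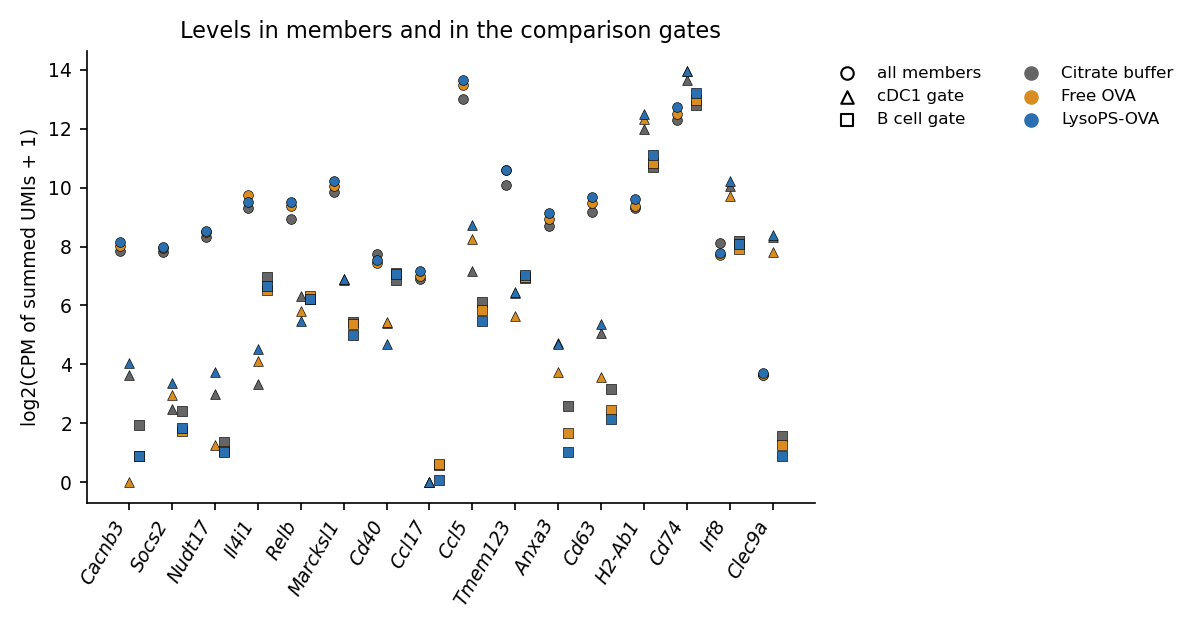
Level as log2(CPM + 1) of 12 migratory genes, H2-Ab1, Cd74, Irf8 and Clec9a in members (circles), the cDC1 gate (triangles) and the B cell gate (squares), 1 point per library in its colour. Migratory genes such as Ccl5 and Il4i1 sit higher in members of all 3 libraries, while Clec9a, Irf8 and H2-Ab1 sit higher in the cDC1 gate.

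A B cell gate took barcodes with a UMI of Ms4a1 and of Cd79a, none of Cd3d or Cd3e and none of the 6 rule genes, and held 3053, 2970 and 3428 barcodes. Against it, 604 of 3474 measured genes (17.4%) were past 1.5-fold higher in members and 1473 (42.4%) lower. Of 27 measured migratory genes 23 were higher and 1 lower, and all 14 measured B cell genes were lower. The gate requires Cd79a and Ms4a1 and bars the rule genes, while members hold rule genes and no Ms4a1. The choice of cells therefore largely sets these counts, which are description and no independent check of the label. Members still held some lymphocyte RNA. A UMI of Cd79a was present in 20.4%, 11.6% and 10.8% of members, and one of the T cell receptor gene Trbc2 in 24.8%, 9.48% and 11.5%. Scrublet called 11.5%, 4.70% and 3.01% of members doublets, below its 17.0%, 5.92% and 7.49% of all kept barcodes. All of these values were highest with citrate buffer, and their part in the library differences below was not tested.

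Genes of antigen presentation and T cell control that are often named for these cells were mostly low. Cd274, which encodes the checkpoint ligand PD-L1, was at 54.02, 49.98 and 54.2 CPM and Pdcd1lg2, which encodes PD-L2, at 36.8, 38.7 and 45.3 CPM, both within a narrow range. The cytokine subunit gene Il12b was at 19.99, 23.4 and 25.5 CPM. The costimulation genes Cd80 and Cd86 were at 12.6, 5.14 and 2.55 and at 65.6, 35.6 and 40.8 CPM, each highest with citrate buffer. Itgb8, part of an integrin able to release active TGF-beta, was at 26.3, 37.6 and 22.3 CPM in members and 2.3, 0 and 3.12 in the cDC1 gate. Tgfb1 was at 47.4, 34.96 and 38.9 CPM in members, below the 78.1, 67.4 and 116 of that gate. Markers that part type 1 from type 2 dendritic cells were at 0 or low: Itgae (CD103) was at 15.4, 4.32 and 5.1 CPM, Itgam (CD11b) at 3.16, 0.411 and 0, Sirpa at 6.31, 3.7 and 3.19 and Irf4 at 25.96, 19.1 and 16.6. At these levels the members cannot be assigned to either lineage from these genes. Of 4 measured genes of the type 2 list, 2 were past 1.5-fold higher in members than in the cDC1 gate and none lower. The type 2 gate was too small for the matching comparison.

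Members made up 5.63% (95% exact binomial interval 5.36% to 5.92%), 10.7% (10.3% to 11.1%) and 5.56% (5.22% to 5.91%) of kept barcodes. The share with free OVA was 1.89 times that with citrate buffer (95% interval 1.78 to 2.01), and that with LysoPS-OVA was 0.987 times (0.912 to 1.07). This order held among barcodes with more Malat1 but not among low-Malat1 barcodes. Among low-Malat1 barcodes members were 16.7%, 18.5% and 23.1%, highest with LysoPS-OVA, and among the others 1.89%, 2.70% and 1.02%, lowest with LysoPS-OVA. Every barcode was then thinned to 2000 UMIs before the rule, and shallower ones were left out of members and kept barcodes alike. Of the 17096, 11160 and 13558 barcodes left, members were 3.33%, 8.35% and 1.78%. Only 498, 892 and 223 of the members as first chosen reached 2000 UMIs, so these are not shares of all cells. When members with a UMI of 6 further B or T cell genes were left out, shares of all kept barcodes were 2.19%, 7.04% and 3.39%. LysoPS-OVA was thus above, level with or below citrate buffer depending on the barcodes counted, while free OVA was above citrate buffer in each of these counts. The part of depth, Malat1 class and lymphocyte RNA in the pooled shares was not tested, and fewer members and more of the other cells cannot be told apart in a share.

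**Figure D2:**
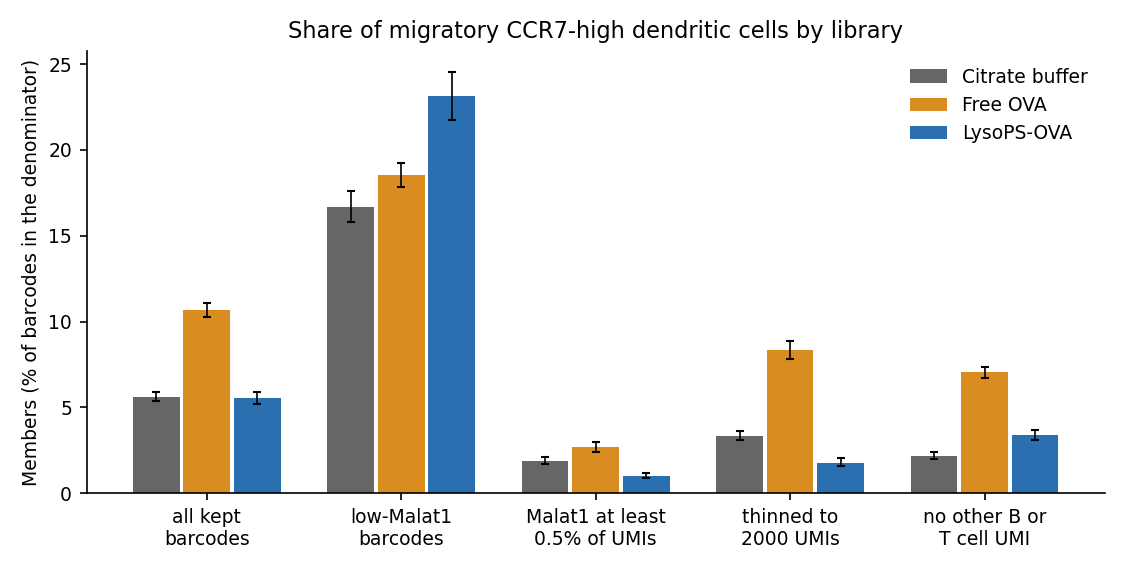
Members as a percent of kept barcodes in each library, with exact binomial intervals. Shown are all kept barcodes, each Malat1 class, barcodes thinned to 2000 UMIs (shallower ones left out), and shares without members holding further B or T cell UMIs. Free OVA is highest over all barcodes (10.7%), while LysoPS-OVA is highest among low-Malat1 barcodes (23.1%).

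Low-Malat1 barcodes made up 1111, 2176 and 823 members (74.9%, 87.4% and 85.5%), against 373, 313 and 140 others. They had a lower mitochondrial share, with medians of 1.61%, 1.23% and 1.13% of UMIs against 2.91%, 2.20% and 1.90%, and a higher share of ribosomal protein transcripts, at 23.6%, 22.6% and 23.5% against 18.7%, 16.2% and 17.7%. Scrublet called 4.14%, 3.68% and 0.486% of low-Malat1 members doublets, against 33.5%, 11.8% and 17.9% of the others. Of 2333 measured genes, 250 (10.7%) were past 1.5-fold higher in low-Malat1 members in all 3 libraries and 873 (37.4%) lower. With ratios centred on the median of all genes the split was 385 higher and 814 lower. With each member thinned to 2000 UMIs, and shallower ones left out, the balance turned to 405 higher and 213 lower. There the members were parted again by Malat1 in the thinned counts and the measured genes were set anew, so more than depth changed.

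The genes that parted the Malat1 classes differed in length. The 250 higher genes spanned a median of 5.53 kb of genome and the lower ones 108 kb, where all measured genes had a median of 31.3 kb. Gramd1b, a sterol transfer protein gene, was at 21.7, 19.6 and 41.3 CPM in low-Malat1 members and 428, 560.1 and 1099.8 in the others. Tmcc3 was at 51.5, 67.2 and 76.2 CPM against 558, 768 and 2056, and the nuclear RNA Neat1 at 33.7, 24.5 and 33.3 against 248, 194 and 716. These 3 transcripts were far lower in low-Malat1 members of every library. In the other direction the survival gene Bcl2a1b was at 1069.8, 1031 and 1168 CPM against 474, 543 and 423, the lipid chaperone gene Fabp5 at 776, 515 and 533 against 415, 232 and 163, and Tmem258 at 170.4, 158 and 162 against 75.1, 77.3 and 78.1. Of 27 measured migratory genes 5 were higher and 4 lower in low-Malat1 members. Of 10 measured B cell genes 7 were lower and of 6 T cell genes 4 were lower. Library comparisons below therefore count a gene only where it was past 1.5-fold in the same direction in both Malat1 classes.

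Between LysoPS-OVA and citrate buffer, 13 of 2121 measured genes (0.613%) were past 1.5-fold higher in members and 65 (3.06%) lower. The median log2 ratio of all measured genes was -0.11 in low-Malat1 members and -0.17 in the others, and with ratios centred on it the split was 25 higher and 30 lower. Of 26 measured migratory genes only Mreg, a regulator of lysosome-related organelles, was past 1.5-fold, and it was higher. It was at 41.4, 80.3 and 71.4 CPM in low-Malat1 members and 185, 206 and 514 in the others. The migratory programme outside the rule had list medians of 0.16 and 0.54.

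Among the antigen presentation genes, H2-M2, H2-T23 and Ctsh were past 1.5-fold higher with LysoPS-OVA. H2-M2, whose promoter is printed above, was at 70.3, 138 and 152 CPM in low-Malat1 members and 80.2, 92.4 and 316 in the others. LysoPS-OVA over citrate buffer was 2.17 (95% interval 1.74 to 2.71) and 3.93 (95% interval 2.83 to 5.5) in these classes. H2-T23, which encodes the ligand of the inhibitory receptor NKG2A, was at 114, 353 and 247 CPM in low-Malat1 members and 113, 266 and 208 CPM in the others. Both ovalbumin libraries were above citrate buffer for H2-T23, and free OVA was the highest. Over citrate buffer its fold was 3.11 (95% interval 2.71 to 3.58) with free OVA and 2.17 (95% interval 1.83 to 2.59) with LysoPS-OVA in low-Malat1 members. Ctsh, a lysosomal protease, was at 133, 238 and 302 CPM in low-Malat1 members and 175, 172 and 355 CPM in the others, with LysoPS-OVA highest in both classes. These were 2 of 19 measured MHC class I genes and 1 of 10 MHC class II genes, and none of either list was lower.

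Cpne8, which encodes a calcium-dependent membrane-binding copine (chr15:90487482-90679432, minus strand), was higher in members of both ovalbumin libraries. It was at 38.98, 141 and 136 CPM in low-Malat1 members and at 21.999, 183 and 325 in the others. Citrate buffer was lowest in both classes, and the intervals of both ovalbumin libraries lay above it. The fold over citrate buffer in low-Malat1 members was 3.48 (95% interval 2.66 to 4.59) with LysoPS-OVA and 3.61 (95% interval 2.86 to 4.61) with free OVA, and in the others 14.8 (95% interval 8.79 to 26.4) and 8.31 (95% interval 4.93 to 14.9). These comparisons share the citrate buffer library, so a value particular to that library would enter both. Laptm4b, a lysosomal membrane protein of the type 1 list, was at 122, 154 and 237 CPM in low-Malat1 members and 107, 185 and 329 CPM in the others and was highest with LysoPS-OVA in both classes. Vmn2r96, annotated as a vomeronasal receptor, was at 7.7, 19.6 and 52.4 CPM in low-Malat1 members and 19.4, 32.1 and 247 CPM in the others, also highest with LysoPS-OVA, but in every library members were below the B cell gate.

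Of 5 measured cell cycle genes, Top2a and Hmgb2 were past 1.5-fold lower with LysoPS-OVA. Top2a, the topoisomerase of dividing cells, was at 70.7, 26.5 and 15.1 CPM in low-Malat1 members and 53.1, 13.2 and 9.76 in the others. Those others held 772762, 530284 and 307320 UMIs in all, so the low Top2a values there rest on few UMIs. The chromatin protein gene Hmgb2 was at 393, 211 and 154 CPM in low-Malat1 members and 289.9, 158 and 117 CPM in the others. Both were highest with citrate buffer in both classes, and LysoPS-OVA over citrate buffer was 0.392 (95% interval 0.334 to 0.459) for Hmgb2 in low-Malat1 members. Ifi27l2a, an interferon-induced gene, was at 306, 238 and 130.2 CPM in low-Malat1 members and 338, 189 and 74.8 CPM in the others, lowest with LysoPS-OVA, and the interferon list held 1 gene higher and 2 lower of 9. None of 15 measured NF-kB and survival genes was past 1.5-fold. Of 8 measured T cell genes 4 were lower, and their summed level was 1085, 489 and 728 CPM in low-Malat1 members and 2589, 1171 and 1337 in the others, highest with citrate buffer. Without members that held further B or T cell UMIs, 44 genes were past 1.5-fold, 13 higher and 31 lower. The smaller log2 ratio of the Malat1 classes was then 1.13 for Ctsh, 1.08 for H2-M2, -1.30 for Hmgb2 and -2.04 for Top2a, where all members gave 0.98, 1.02, -1.24 and -1.67. For Rac2, a GTPase of blood cells, it was -0.73 where all members gave -1.02.

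**Figure D3:**
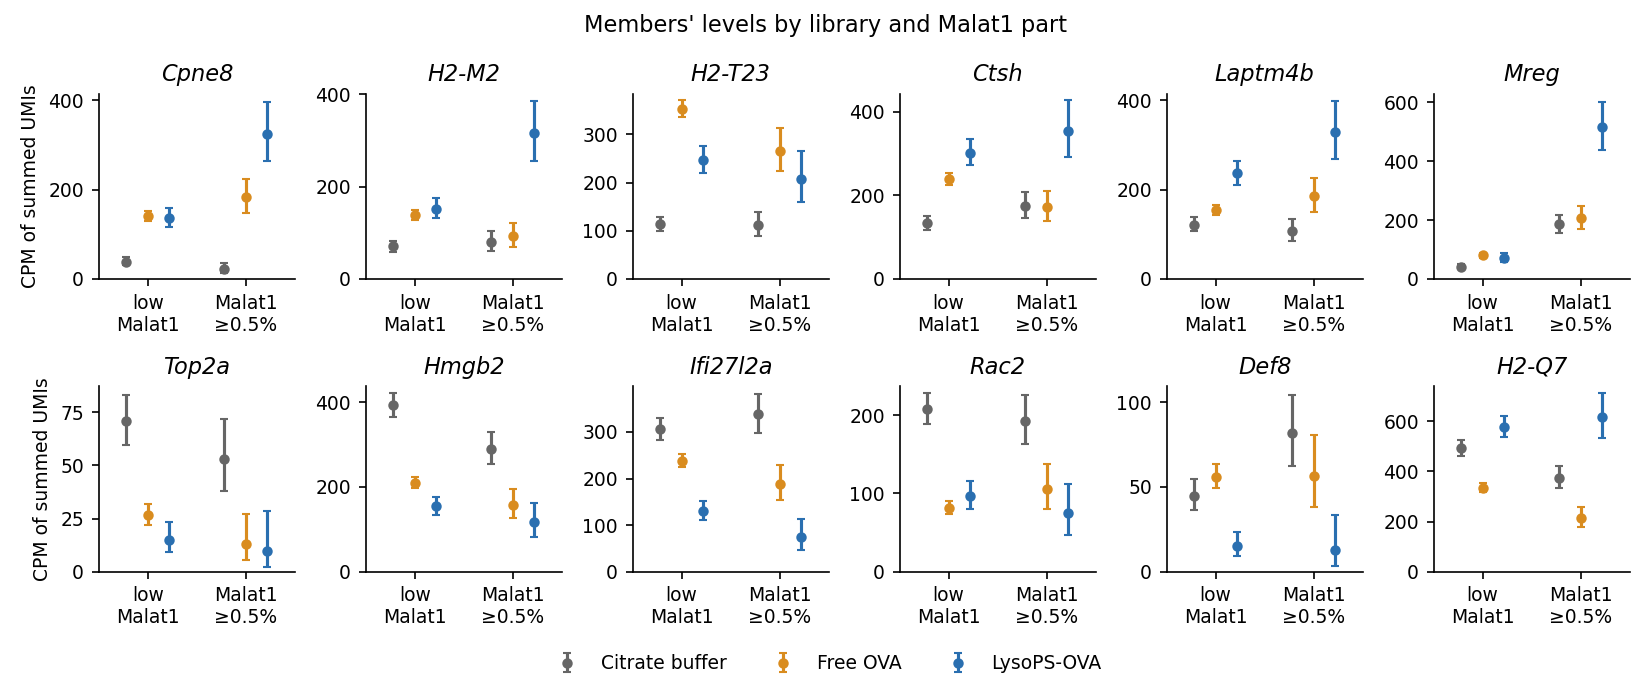
Level in CPM (linear axes from 0) of 12 genes that differed between libraries, in low-Malat1 members and in the others, with exact 95% Poisson intervals, 1 point per library. Cpne8 is lowest with citrate buffer in both classes and Top2a is highest there.

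Between free OVA and citrate buffer, 18 of 2259 measured genes (0.797%) were past 1.5-fold higher and 105 (4.65%) lower, or 48 higher and 39 lower with ratios centred on the all-gene medians of -0.21 and -0.17. No gene of the 26 measured migratory ones was past 1.5-fold. Cdk8, a kinase of the Mediator complex, was at 101, 282 and 141 CPM in low-Malat1 members and 166, 426 and 182 in the others. Gclc, the rate-limiting enzyme of glutathione synthesis, was at 41.4, 82.2 and 34.9 CPM in low-Malat1 members and 50.5, 102 and 71.6 CPM in the others. Both were highest with free OVA among low-Malat1 members and among the others. Car2, a carbonic anhydrase, was at 66.4, 109 and 59.5 CPM in low-Malat1 members and 51.8, 99.9 and 19.5 CPM in the others, again highest with free OVA. On the lower side Rac2 was at 207, 81.9 and 96.8 CPM in low-Malat1 members and 193, 106 and 74.8 CPM in the others, and Mif at 176, 87.5 and 89.7 CPM in low-Malat1 members and 118, 75.4 and 48.8 CPM in the others, both highest with citrate buffer.

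Of 9 measured genes on a list of RNA-quality and free RNA genes, Gm42418, AY036118 and Camk1d, or 3, were past 1.5-fold higher with free OVA and none lower. Gm42418, which overlaps the ribosomal RNA locus, was at 33141, 85877 and 31420.2 CPM in low-Malat1 members and 34667, 113217 and 27649 in the others, and AY036118 at 896, 2531 and 617 CPM in low-Malat1 members and 961, 3095 and 648 CPM in the others. Camk1d, on the same list, was at 2604, 5466 and 4890.4 CPM in low-Malat1 members and 2926, 7553 and 4298 CPM in the others, lowest with citrate buffer. Gm42418 and AY036118 were highest with free OVA by more than 2-fold. All 8 measured T cell genes were past 1.5-fold lower with free OVA, with list medians of -1.02 and -1.17. Cell cycle genes were lower for 3 of 5. Without members that held further B or T cell UMIs, 18 genes were higher and 50 lower. The part of the ribosomal RNA in the lower values of other genes was not tested.

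Between LysoPS-OVA and free OVA, 8 of 1735 measured genes (0.461%) were past 1.5-fold higher and 10 (0.576%) lower, or 5 and 14 with ratios centred on the all-gene medians of 0.10 and 0.05. None of 26 measured migratory genes was among them. H2-Q7, which encodes a Qa-2 molecule of the nonclassical MHC class I group, was at 493, 334 and 578 CPM in low-Malat1 members and 375, 215 and 618 in the others, lowest with free OVA. LysoPS-OVA over free OVA was 1.73 (95% interval 1.58 to 1.89) and 2.88 (95% interval 2.27 to 3.66). H2-Q genes are near-identical, so reads may be split among them; summed over 6 of them the levels were 618, 451 and 706 CPM and 545, 360 and 849 CPM, in the same order. Def8, a regulator of lysosome positioning, was at 44.8, 56.1 and 15.1 CPM in low-Malat1 members and 81.5, 56.6 and 13.02 CPM in the others and lowest with LysoPS-OVA in both classes. Of 7 measured RNA-quality genes 4 were past 1.5-fold lower with LysoPS-OVA.

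Aldh1a2, which makes retinoic acid (chr9:71215789-71296243, plus strand), had at least 1 UMI in 530, 828 and 257 members, or 35.7% (33.3% to 38.2%), 33.3% (31.4% to 35.2%) and 26.7% (23.9% to 29.6%). Its level over all members was 411, 374 and 315 CPM. Members with a UMI were deeper, with medians of 1913.5, 2004.5 and 1598 UMIs against 1527.5, 1500 and 1251, and LysoPS-OVA members were the shallowest. After thinning to 2000 UMIs, which kept 498, 892 and 223 members, the shares were 42.2% (37.8% to 46.6%), 38.6% (35.4% to 41.8%) and 39.5% (33.0% to 46.2%). The thinned ratio to citrate buffer was 0.936 (0.772 to 1.13) with LysoPS-OVA and 0.915 (0.801 to 1.04) with free OVA. Both intervals hold 1, which does not show that the libraries are alike. For free OVA the interval lay below 1 among low-Malat1 members (0.823, 0.719 to 0.943), without doublets (0.843, 0.738 to 0.963) and with at most 5% mitochondrial UMIs (0.846, 0.737 to 0.971). In the cDC1 gate, 2 of 105, 2 of 152 and 0 of 60 thinned barcodes had a UMI, where 0 of 60 allows a share of up to 5%, and in the B cell gate 0.315%, 0.318% and 0.215%. Unthinned barcodes had a median of 2320, 2291.5 and 2057.5 UMIs in the cDC1 gate and 3551, 5023 and 4323.5 in the B cell gate, above the members'. Both gates were chosen to hold at most 1 or none of the rule genes, so their shares are no measure of the free RNA that members may carry. Thinned low-Malat1 members had Aldh1a2 in 48.5%, 39.9% and 44.6% and the others in 25.5%, 22.9% and 19.6%.

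**Figure D4:**
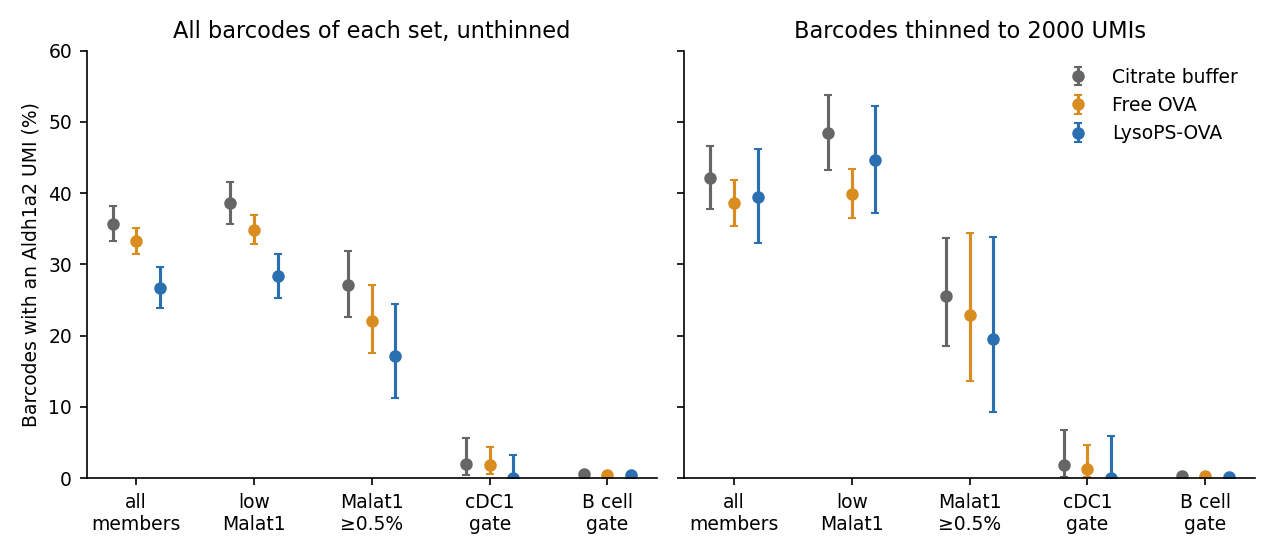
Percent of barcodes with at least 1 Aldh1a2 UMI by library, before and after thinning to 2000 UMIs, in members, their Malat1 classes and the cDC1 and B cell gates, with exact binomial intervals. Thinned member shares lie between 38.6% and 42.2% and the gates near 0.

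Members with at least 1 Aldh1a2 UMI and members with 0 were then compared for other genes. At this depth, 0 UMIs does not show that a member lacks the transcript. Its share in every library was lower after thinning to 1000 UMIs than to 2000, at 25.8% against 42.2% with citrate buffer. Members without a UMI may thus include some that express it, which would make differences smaller. A low count of genes therefore does not show that the members are alike. Of 2166 measured genes, 22 (1.02%) were past 1.5-fold higher in members with Aldh1a2 in all 3 libraries and 6 (0.277%) lower. Members with Aldh1a2 are deeper. With each member thinned to 2000 UMIs, shallower ones left out and the rest parted again on the thinned counts, the split was 17 higher and 15 lower. The parting uses counts of the same cells, so these are descriptions. Unlike the library comparisons, it pooled the Malat1 classes. Low-Malat1 members had Aldh1a2 more often, and the part of Malat1 class in these differences was not tested. Ccl17 was at 178, 201 and 287 CPM with Aldh1a2 and 77.7, 76.4 and 74.9 without. The BCL2-family gene Bcl2l14 was at 271, 211 and 213 CPM against 86.03, 97.7 and 70.1. Pdcd1lg2 was at 55.2, 62.9 and 64.4 CPM against 23.9, 22.4 and 36.01. All 3 were higher beside Aldh1a2 in each library, and Ccl17 differed most with LysoPS-OVA.

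None of 25 measured cytoskeleton and motility genes was past 1.5-fold in either direction. Of all measured genes 1.02% were higher and 0.277% lower, so 0 of 25 says little about this list. The next 3 genes are outside that list and were named because they ranked among the 10 highest of all genes. The actin crosslinker gene Lima1 was at 168, 279 and 355 CPM against 82.4, 118 and 122. The formin gene Fmnl2 was at 184, 254 and 715 CPM against 96.2, 121 and 238, and the actin-binding gene Tagln2 at 2052, 1672 and 2056 against 1198, 841 and 1093. Each was higher beside Aldh1a2 in every library. The granzyme inhibitor gene Serpinb9 was at 562, 589 and 644 CPM against 338, 362 and 357, and Naxe, an enzyme of NADHX repair, at 328, 314 and 365 against 161, 153 and 172. Naxe was also among the 10 highest genes in low-Malat1 members.

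On the lower side stood S100a4, Tyrobp, Aif1 and Apoe. S100a4, a calcium-binding protein gene of the type 2 list, was at 69.7, 87.9 and 58.6 CPM with Aldh1a2 and 159.5, 208 and 141 without. The signalling adaptor gene Tyrobp was at 158, 219 and 166 CPM against 385, 424 and 422, and Aif1 at 117, 127 and 156 against 221, 251 and 302. The lipid carrier gene Apoe was at 70.5, 40.4 and 29.3 CPM against 116, 81.2 and 60.7. All 4 were lower beside Aldh1a2 in each library. Of 27 measured migratory genes 2 were past 1.5-fold, and none of 11 MHC class II genes, 20 MHC class I genes or 18 NF-kB and survival genes was. With 1.02% of all measured genes higher and 0.277% lower, none in lists this short says little about them. Of the 20 listed retinoic acid genes other than Aldh1a2 none reached the level needed to be measured; the receptor gene Rara was at 16.5, 12.3 and 10.8 CPM over all members.

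**Figure D5:**
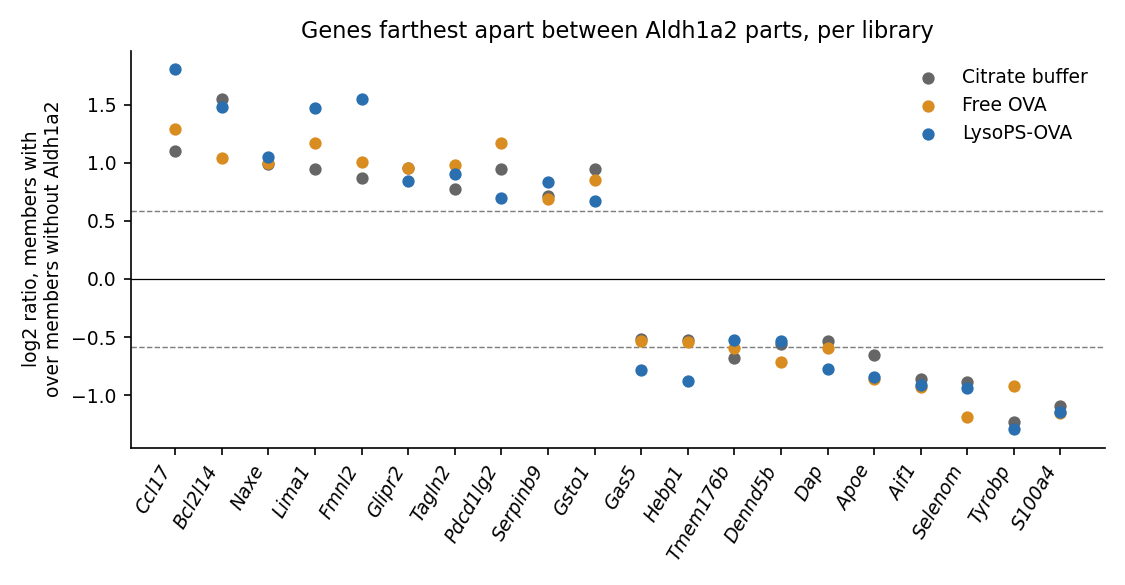
Log2 ratio, members with at least 1 Aldh1a2 UMI over members with 0, for the 10 highest and 10 lowest genes, 1 point per library, with dashed lines at 1.5-fold. Ccl17 and Bcl2l14 lie above 0 and S100a4 and Tyrobp below 0 in all 3 libraries.

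Genes for sensing phosphatidylserine and its lyso form, the lipid of the LysoPS-OVA feed, were sparse in members. Of 26 listed genes 2 were measured between LysoPS-OVA and citrate buffer, and neither was past 1.5-fold. Mfge8, a bridging protein for phosphatidylserine, was at 50.5, 27.6 and 47.9 CPM over all members, and the engulfment adaptor gene Elmo1 at 333, 191 and 287. Among genes for lysophosphatidylserine receptors, Gpr34 had 12, 10 and 1 UMIs in all members of a library, P2ry10 had 117, 175 and 68, and Gpr174 had 180, 181 and 62. These counts are not scaled for depth, as members held 2850822, 4862314 and 1567336 UMIs in all. Against the B cell gate, 3 genes of the list were measured, P2ry10, Gpr174 and Elmo1, and all 3 were past 1.5-fold lower in members. Of all 3474 genes measured there 42.4% were lower, so 3 of 3 says little about this list. The phosphatidylserine receptor gene Havcr2 (TIM-3) was at 3.16, 2.26 and 2.55 CPM and Mertk at 0.702, 0.411 and 0. At such counts differences between libraries were not detectable at this depth for most of the list. P2ry10 and Gpr174 did not reach the level needed to be measured between libraries, so their differences between libraries were not examined.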

How the data were processed

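Whole-transcriptome libraries with 3′ chemistry were made from pooled mesenteric lymph nodes, 1 library per group, per the labels' protocols. The values deposited by the authors are raw UMI counts for each gene in each barcode, made with Cell Ranger 7.2.0 on mm10, per the submitters' processing notes; for the annotation version and intron setting, nothing is given in the sources used here. Gene spans came from GENCODE M21 (32158 of 32285 genes, 99.6%, matched by identifier). The members and the gene lists were chosen with earlier results of these data known.

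Kept barcodes had 300 or more genes and no more than 10% mitochondrial UMIs. UMIs were summed per library and class, scaled to CPM, and compared as log2((CPM + 10)/(CPM + 10)). A gene was measured with at least 50 CPM and 30 UMIs in the higher part, and counted past 1.5-fold only in the same direction in both Malat1 classes, or in all 3 libraries for partings and gates. With 1 library per group no test was possible. Intervals are exact Poisson (CPM), conditional binomial (folds), Clopper-Pearson (shares) or log-normal (share ratios), at 95%, and cover counting error only. Scrublet (scanpy 1.11.5) was run on each library to call doublets (expected rate 0.8% per 1000 barcodes) but kept in the main values. Python 3.11.15, numpy 2.4.6, scipy 1.17.1 and pandas 2.3.3 were used, and the scripts were tested on simulated data.

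Named genes were, per library comparison, the 8 highest and 8 lowest by the smaller log2 ratio over both Malat1 classes, per parting the 10 highest and 10 lowest over the 3 libraries, per gate the 8 highest, up to 6 per list, and 25 fixed genes; immunoglobulin, T cell receptor, ribosomal, mitochondrial, haemoglobin, Xist, Y-linked and unnamed genes were left out of the ranks. Rara, Gm42418, AY036118 and the phosphatidylserine genes come from their lists. Of 31 lists, Cd58, Marchf1, Mx1 and Clec7a were not matched in the files. Some items are not reported here.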

Additional observations from a re-analysis of the deposited data

Results flagged for a closer look

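Barcodes that met every condition of the rule except that they held a UMI of Xcr1 were more frequent with free OVA (29) than with citrate buffer (15), a ratio of shares of 2.18 (95% interval 1.17 to 4.07); these barcodes are outside the members, and the difference was not tested. Barcodes with exactly 2 of the 6 rule genes that met every other condition numbered 940 with free OVA and 519 with citrate buffer, a ratio of shares of 2.045 (1.84 to 2.27), close to that of the members themselves, and likewise not tested.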

How the results depend on the processing

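No paired analysis was possible because each group is 1 library. The ratio of member shares, LysoPS-OVA over citrate buffer, was 1.55 without members holding further B or T cell UMIs. It was 0.535 after thinning with shallower barcodes left out, 0.537 among barcodes with Malat1 of at least 0.5% and 1.39 among low-Malat1 barcodes. Free OVA over citrate buffer was 3.21, 2.505, 1.42 and 1.11 in the same order, and 1.70 with at most 5% mitochondrial UMIs. LysoPS-OVA over free OVA was 0.4815, 0.214 and 0.377, and turned to 1.25 among low-Malat1 barcodes. The share with Aldh1a2 was 0.747 (LysoPS-OVA over citrate buffer) and 0.802 (over free OVA) unthinned, and the former 0.766 among members with more Malat1. Genes past 1.5-fold between LysoPS-OVA and citrate buffer, 78 as reported, numbered 44 without further B or T cell UMIs, 277 with Malat1 classes pooled, 935 in the higher and 202 in the low Malat1 class alone, 279 with no filter on low counts and 13 past 2-fold. For free OVA and citrate buffer, 123 became 68, 622, 670, 317, 335 and 13, and 81 without doublets. For LysoPS-OVA and free OVA, 18 became 266 pooled, 598 and 82 in the higher and low class, 10 with a Malat1 threshold of 1%, 67 with no filter and 5 past 2-fold. The Aldh1a2 parting fell from 28 to 4 genes past 2-fold, and without 1 library (chosen after seeing the data) it held 39 to 55, with 55 without citrate buffer and 54 without free OVA; fewer libraries must then pass. The Malat1 parting, 1123 genes, held 2341 with no filter, 584 past 2-fold and 579 by mean CPM per cell. After thinning and parting again on the thinned counts it held 618, 405 higher and 213 lower, against 250 and 873 as reported. The cause was not tested for the other shifts. Of 784 values of named genes under alternatives 668 moved less than their error, 116 moved more and 0 were reversed. A reversal was counted only where every compared Malat1 class or library turned to the opposite sign. A turn in only some of them was not counted, so the 0 does not show that no sign changed. With 1 library per group no setting gives an error between animals, and genes under 50 CPM were not compared.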

Other observations

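The homing chemokine gene Ccl19 was at 8.42, 16.5 and 17.9 CPM over all members, lowest with citrate buffer. Macrophage and monocyte genes summed to 269, 239 and 125 CPM in low-Malat1 members and 269, 99.9 and 111 in the others.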
